A study of Mus musculus with 6 samples.

Results

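The genes that encode the proteins of the cytosolic ribosome were compared between VMHpvlm and VMHpvll, neighbouring areas of the ventrolateral ventromedial hypothalamus, in female mice. They were chosen by symbol alone: names beginning with Rps or Rpl and a number, with a following a, l, x or y where present, together with Rpsa, Rplp0, Rplp1 and Rplp2, and without pseudogene names ending in -ps. The rule found 89 of 47480 genes in the table, 36 of the small subunit and 53 of the large subunit. All mice, in both areas, carried VgluT2-cre, in which Cre follows the VgluT2 (Slc17a6) gene, and the Ai6 reporter, a fluorescent protein switched on by Cre. Both areas were cut from frozen brain sections by laser capture, so each library holds the RNA of all cells in the cut area and not only of the labelled neurons. There were 3 libraries of VMHpvlm and 3 of VMHpvll, with titles that share the names F19, F20 and KH_161103, and values below follow that order unless stated. The labels give no age or treatment. They do not say whether libraries came from separate or pooled animals, and p-values therefore reflect only library-to-library spread, which may be technical.

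The ribosome has a small subunit, which reads the mRNA, and a large subunit, which joins amino acids and releases the growing chain through an exit tunnel. Each subunit is a core of ribosomal RNA with single copies of most of its proteins. In mammals their mRNAs are short, abundant and present in every cell type, and most begin with a 5′ terminal oligopyrimidine (5′ TOP) tract, a C followed by pyrimidines, through which the mTOR pathway sets their translation.

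Start-site sequences of 6 members are shown because that tract is the feature by which ribosomal protein mRNAs are usually recognised. Each runs 5′ to 3′ on the gene's own strand from 40 bases before to 20 bases after the RefSeq start on GRCm38.p6, and capitals mark a tract that begins with C at most 5 bases from that start and goes on with at least 4 pyrimidines (C or T).
Rplp2, chr7:141447611-141447670, plus strand: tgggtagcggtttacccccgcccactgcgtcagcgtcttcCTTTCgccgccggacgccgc
Rps10, chr17:27635225-27635284, minus strand: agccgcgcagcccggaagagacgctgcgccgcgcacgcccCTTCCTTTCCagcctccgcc
Rps6, chr4:86857348-86857407, minus strand: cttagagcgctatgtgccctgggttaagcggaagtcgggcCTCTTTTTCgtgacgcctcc
Rps27, chr3:90213629-90213688, minus strand: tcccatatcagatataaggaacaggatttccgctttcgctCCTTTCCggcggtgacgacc
Rpl41, chr10:128549149-128549208, minus strand: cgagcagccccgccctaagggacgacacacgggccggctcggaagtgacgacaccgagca
Rps28, chr17:33824543-33824602, minus strand: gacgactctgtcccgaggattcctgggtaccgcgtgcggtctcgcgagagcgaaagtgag
Rplp2, Rps10 and Rps6, which were called lower in VMHpvlm below, and Rps27, which was not called, have the tract exactly at the start. Rpl41 and Rps28, also called, hold no such run within 5 bases of the RefSeq start.

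A start-site sequence was at hand for 64 of the 89 members. Of these, 29 (45.3%) had a tract within 5 bases of a start in at least 1 of their windows, against 21.2% of all 27025 genes with a window and 23.9% of the 10286 tested genes with one. Exactly at the start it stood in 13 members (20.3%), against 3.01% of all genes and 3.04% of tested genes. The tract was found for 9 of 17 called members (52.9%) and 20 of 44 members that were tested and not called (45.5%). Over the whole window of 300 bases, 250 before the start and 50 after it, the letters CCGGAAG, a core motif of GABP, stood on either strand in 26 of the 64 members (40.6%), in 9.93% of all genes and in 18.8% of tested genes. The letters AAGATGG, a core motif of YY1, stood on either strand in 10 members (15.6%), in 7.28% of all genes and in 8.22% of tested genes. A match is a description of letters near an annotated start and not a binding site.

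Depth, recovered as whole reads from the deposited values, ran from 7353127 to 11293159 reads in VMHpvlm and from 7157831 to 11167288 in VMHpvll. As a check of the tissue, the VMH transcription factor Nr5a1 had a mean of 308 ± 19.5 normalised counts in VMHpvlm and 31.5 ± 6.73 in VMHpvll (SD, n = 3 each), and Slc17a6 had 4665 ± 139 and 4946 ± 17.1.

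Ribosomal protein mRNAs were on balance lower in VMHpvlm, by a small amount. Their summed normalised count was 62344, 65723 and 59190 in the VMHpvlm libraries, against 68156, 69349 and 62560 in the VMHpvll libraries. The sum was lower in VMHpvlm in 3 of 3 pairs, with changes of -8.53%, -5.23% and -5.39%, but the areas overlapped, because the F20 library of VMHpvlm lay above the KH_161103 library of VMHpvll. As a share of all reads the members made up 0.606% ± 0.0344 in VMHpvlm and 0.636% ± 0.0198 in VMHpvll (SD, n = 3 each). By pair this share changed by -7.48%, -1.02% and -5.96%, so that the F20 libraries were nearly equal by this measure. All reads here include those of Gm42418, a gene with a large and uneven share described below. With its reads left out of the total, the members' share changed by -10.5%, -4.85% and -6.07%.

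Of the 89 members, 84 averaged 10 or more normalised counts across libraries and were tested. Of these 84, 22 were called lower in VMHpvlm (26.2%) and 0 were called higher, by limma with a fixed pair block at a Benjamini-Hochberg adjusted p below 0.05 over all 14522 tested genes. Over all tested genes, 9.48% were called lower in VMHpvlm and 10.5% higher. By edgeR and DESeq2, too, 0 members were called higher. The median log2 difference of the members, taken as VMHpvlm minus VMHpvll after adding 1 to each value, was -0.11, against 0.0025 over all tested genes. The fitted difference was below 0 for 76 of 84 members and for 49.5% of all tested genes. In the F19, F20 and KH_161103 pairs the members' median was -0.15, -0.095 and -0.085, with 71, 62 and 66 of 84 below 0. The 22 called members were between 8.48% and 26.3% lower in VMHpvlm as ratios of means, with a median of 14.4%. Of them 21 were lower in 3 of 3 pairs, which follows largely from their choice by a fit on these same pairs. Of all 84 tested members, called or not, 43 (51.2%) were lower in VMHpvlm in 3 of 3 pairs, against 23.2% of all tested genes.

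How many members were called, and whether their share stood above that of all genes, depended on the model. Without the pair block 1 member was called lower (1.19%), against 5.94% of all tested genes, and with the pair as a random effect 8 were (9.52%), against 8.78%. DESeq2 called 3 (3.57%), against 4.01%, and a variance prior without trend and robust called 0, against 1.60%. Under these 4 fits the members' share was thus near or below that of all genes. edgeR called 24 (28.6%), against 10.4%. Without the F19 pair 7 were called (8.33%), against 6.92%, and without the KH_161103 pair 9 (10.7%), against 5.77%. Without the F20 pair 19 were called (22.6%), and for all genes only the range below is given. With single libraries left out, without the block, between 1 (1.19%) and 9 (10.7%) were called. Over all fits with a pair or library left out, 643 to 1361 of the 14522 tested genes were called lower. Where only 1 member was called, the members' share was thus below that of all genes. No member was called higher in any of these fits.

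**Figure D1:**
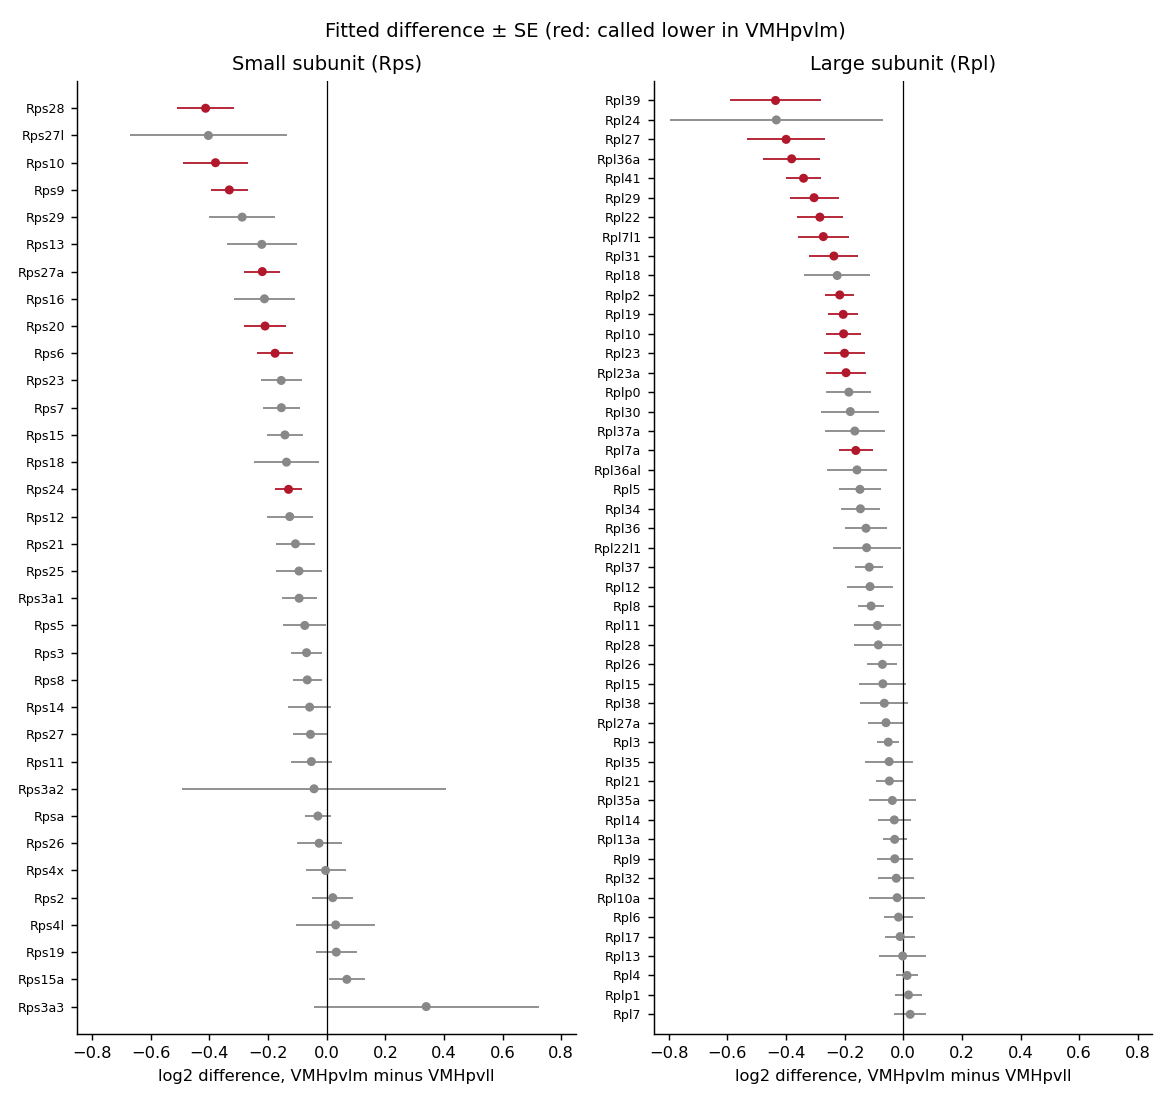
Fitted log2 difference (VMHpvlm minus VMHpvll, points) with its standard error (lines) for 82 of the 84 tested genes, 34 of the small subunit on the left and 48 of the large subunit on the right. Red points are the 21 of these genes called lower in VMHpvlm, grey points were not called, and 74 of 82 points lie left of 0.

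Members of both subunits were among those called. Of 35 tested small-subunit genes 8 were called lower in VMHpvlm (22.9%), with a median log2 difference of -0.11. Of 49 large-subunit genes 14 were called lower (28.6%), with a median of -0.12. The summed count of the small-subunit genes averaged 21389 ± 1432 in VMHpvlm and 23035 ± 1695 in VMHpvll, and that of the large-subunit genes 41030 ± 1907 and 43653 ± 2008 (SD, n = 3 each).

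Among small-subunit genes, Rps9 and Rps28 had the smallest adjusted p-values. Rps9, whose protein lies near the mRNA entry channel, had 676, 750 and 564 normalised counts in the VMHpvlm libraries, against 909, 876 and 717 in the VMHpvll libraries. Within each pair VMHpvlm was lower, although the F20 library of VMHpvlm was above the KH_161103 library of VMHpvll (log2 difference -0.33 ± 0.063 SE, limma Benjamini-Hochberg adjusted p = 7.04e-05). Rps28, whose protein lies near the mRNA exit, had 230, 219 and 229 counts in VMHpvlm, against 326, 293 and 286 in VMHpvll. Here the areas did not overlap (log2 difference -0.41 ± 0.098 SE, limma Benjamini-Hochberg adjusted p = 0.00134). Rps28 was called in 20 of 23 alternative fits, the most of any member, and Rps9 in 17. These fits reuse the same 6 libraries and many differ little, so the tally is a description. Rps28 was not called by DESeq2, nor with the variance prior without trend and robust. It was also lost without the block when the F19 library of VMHpvll was left out.

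Rps10, a protein of the head of the small subunit, had 217, 153 and 171 counts in VMHpvlm, against 268, 234 and 199 in VMHpvll (log2 difference -0.38 ± 0.11 SE, limma Benjamini-Hochberg adjusted p = 0.0109). Its areas overlapped through the F19 library of VMHpvlm. Rps27a, which encodes ubiquitin fused to a ribosomal protein, had 796, 886 and 595 counts in VMHpvlm, against 979, 967 and 700 in VMHpvll. Rps6, the substrate of S6 kinase downstream of mTOR, had 679, 765 and 655 counts in VMHpvlm, against 741, 830 and 798 in VMHpvll. Rps20 and Rps24 were also called, with log2 differences of -0.21 and -0.13, and for both the areas overlapped. Rps19, the gene most often mutated in Diamond-Blackfan anaemia in humans, was the 1 member higher in VMHpvlm in 3 of 3 pairs, by little: 572, 583 and 539 counts in VMHpvlm, against 558, 572 and 525 in VMHpvll (log2 difference 0.033 ± 0.069 SE, not called). Over all tested genes, 24.9% were higher in VMHpvlm in 3 of 3 pairs.

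Rpl41, which encodes the smallest protein of the large subunit, had the smallest adjusted p of all members. It had 784, 837 and 547 counts in VMHpvlm, against 1059, 1002 and 687 in VMHpvll. Every pair was lower in VMHpvlm, but the KH_161103 libraries of both areas lay well below the others, so the areas overlapped (log2 difference -0.34 ± 0.061 SE, limma Benjamini-Hochberg adjusted p = 2.75e-05). Rpl39 and Rpl31, both at the exit tunnel, had log2 differences of -0.44 and -0.24, and Rpl31 was the called member that was not lower in every pair, with a pair difference of 0.047 in F20. Rpl39 is low for a member, at 90.7, 95.8 and 63.6 counts in VMHpvlm, against 132, 121 and 86.7 in VMHpvll. Rpl23a, at the same site, had 601, 600 and 493 counts in VMHpvlm, against 657, 734 and 553 in VMHpvll.

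Rpl19, which helps to bridge the subunits, had 1285, 1251 and 1058 counts in VMHpvlm, against 1442, 1495 and 1208 in VMHpvll (log2 difference -0.20 ± 0.051 SE, limma Benjamini-Hochberg adjusted p = 0.00223). Rpl10, which joins late in the maturation of the large subunit, had 883, 754 and 657 counts in VMHpvlm, against 1014, 812 and 812 in VMHpvll. Rpl36a had 260, 280 and 201 counts in VMHpvlm, against 376, 323 and 267 in VMHpvll, and Rpl29 had 295, 423 and 341, against 347, 484 and 477. For all 3 of these genes the areas overlapped while each pair was lower in VMHpvlm. Rpl27 did not overlap, at 103 to 133 counts in VMHpvlm and 145 to 194 in VMHpvll, nor did Rpl7a, at 754 to 824 and 842 to 938. Rpl23, whose protein binds Mdm2 together with those of Rpl5 and Rpl11, had a log2 difference of -0.20 and was called, while Rpl5 (-0.15) and Rpl11 (-0.088) were not. In all, the areas did not overlap, with VMHpvlm below, for 6 of 84 members (7.14%), of which 5 were called, against 13.5% of all tested genes. For 0 members did VMHpvlm lie wholly above VMHpvll, against 14.5% of all tested genes.

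**Figure D2:**
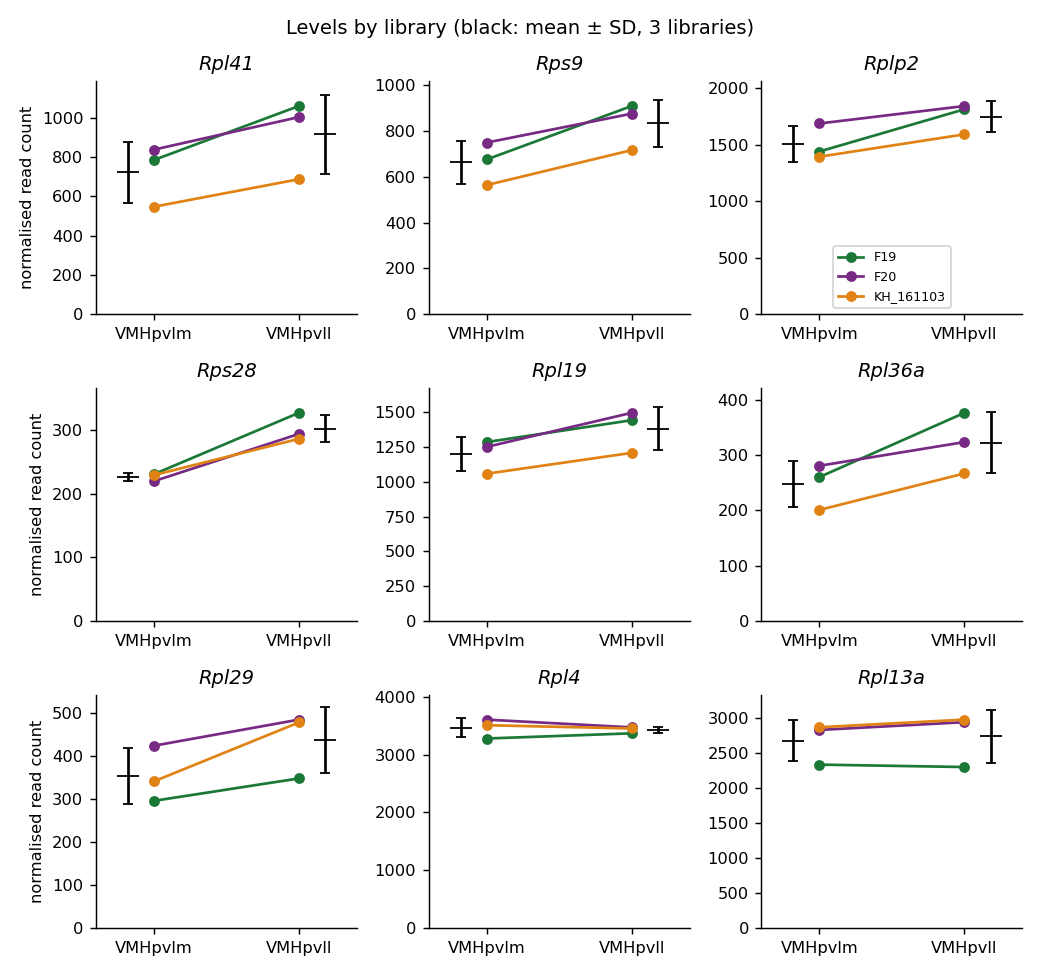
Normalised read counts of 9 members in each library, VMHpvlm on the left and VMHpvll on the right of each panel, with lines joining libraries of the same name and black bars for mean and SD of 3 libraries. The first 7 genes (Rpl41 to Rpl29) were lower in VMHpvlm in 3 of 3 pairs and were called, and Rpl4 and Rpl13a were not called.

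Of the 3 stalk genes 1 was called. The stalk is the part of the large subunit that recruits elongation factors, built from the proteins of Rplp1 and Rplp2 on a base of Rplp0. Rplp2 had 1441, 1689 and 1395 counts in VMHpvlm, against 1815, 1844 and 1593 in VMHpvll, and was called lower (log2 difference -0.22 ± 0.049 SE, limma Benjamini-Hochberg adjusted p = 0.000713). Rplp1, its partner, had 2040, 2487 and 2115 counts in VMHpvlm, against 2050, 2612 and 1931 in VMHpvll, and was not called (log2 difference 0.018, 95% interval -0.072 to 0.11). Rplp0 was lower in VMHpvlm in 3 of 3 pairs, at 379, 483 and 516 counts against 496, 499 and 562, without being called (log2 difference -0.19, with a Benjamini-Hochberg adjusted p of 0.0866 from limma). Whether Rplp1 and Rplp2 differ from each other in their difference was not tested.

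Most of the members with the highest counts were not called. Rpl4, whose protein reaches into the exit tunnel, had 3282, 3609 and 3512 counts in VMHpvlm, against 3371, 3474 and 3455 in VMHpvll (log2 difference 0.013, 95% interval -0.063 to 0.090). Rpl3, which shapes the peptidyl transferase centre, averaged 3372 ± 293 in VMHpvlm and 3490 ± 251 in VMHpvll (log2 difference -0.051, 95% interval -0.13 to 0.025). Rpl13a averaged 2672 ± 297 and 2734 ± 380 (-0.029, interval -0.11 to 0.053), and Rpsa 2075 ± 118 and 2118 ± 102 (-0.030, interval -0.12 to 0.059; SD, n = 3 each). These intervals are for a single gene, without adjustment. Rpl21 (-0.047) was likewise not called. Rpl8 did not overlap, at 1807 to 1911 counts in VMHpvlm and 1924 to 2177 in VMHpvll, but its adjusted p was 0.0837 by limma. Of the 8 members with the highest mean, Rps24 alone was called. Across members, the log2 difference and the mean count had a Spearman's rho of 0.35 (n = 84 genes of the same 6 libraries, a description), so that members with more reads lay nearer 0. Of 18 members with a mean of at least 1000, 4 were called lower (22.2%), with a median of -0.059, against 15.4% of other genes at that level, with a median of 0.036.

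Per kilobase of mRNA, members spanned a wide range of levels. Over the 81 tested members with a protein-coding transcript, the mean normalised count per kilobase ran from 27.0 for Rpl24 to 5461 for Rpl13a, with a median of 848. Rpl24 had 16.3, 15.3 and 12.7 counts in VMHpvlm, against 10.99, 29.8 and 24.6 in VMHpvll. In the annotation 47.0% of its exon bases overlap Gm28037, and 81.7% of its 50-base windows are shared with other genes; the part of this in its level was not tested. At this depth its log2 difference of -0.43 was within error (95% interval -1.17 to 0.30). Rps15a, of the small subunit, had a positive difference at 0.069 and was not called. The largest positive difference, 0.34 for Rps3a3, which is annotated as a processed pseudogene, was also within error (interval -0.44 to 1.11).

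Paralogues of ribosomal proteins were expressed beside the main copies. Rpl22 and Rpl22l1 encode alternative forms of the same protein, and in mouse cells the first represses the second. Rpl22 had 295, 358 and 506 counts in VMHpvlm, against 383, 405 and 624 in VMHpvll, and was called lower (log2 difference -0.28 ± 0.080 SE, limma Benjamini-Hochberg adjusted p = 0.00716). Rpl22l1 had 188, 221 and 174 counts in VMHpvlm, against 259, 197 and 184 in VMHpvll, and was not called. The ratio of Rpl22l1 to Rpl22 was 0.638, 0.616 and 0.345 in VMHpvlm, against 0.678, 0.485 and 0.295 in VMHpvll, so it was lowest in the KH_161103 libraries of both areas and showed no single direction between areas. Rpl7l1, a relative of Rpl7, did not overlap between areas, with 287, 340 and 299 counts in VMHpvlm, against 374, 374 and 369 in VMHpvll, and was called (log2 difference -0.27 ± 0.088 SE, limma Benjamini-Hochberg adjusted p = 0.0207). Rpl7 itself was at 1208, 1334 and 1412 counts in VMHpvlm, against 1344, 1249 and 1290 in VMHpvll (0.024, not called). The ratio of Rpl7l1 to Rpl7 was lower in VMHpvlm in each pair, at 0.238, 0.255 and 0.212, against 0.278, 0.299 and 0.286.

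Rpl36a and Rpl36al encode nearly the same protein. Their ratio, Rpl36al to Rpl36a, was higher in VMHpvlm in each pair, at 0.766, 0.881 and 1.23, against 0.646, 0.839 and 0.959, with Rpl36al itself at 231 ± 27.4 counts in VMHpvlm and 257 ± 14.1 in VMHpvll (SD, n = 3 each; log2 difference -0.16, not called). Rps27l stayed far below Rps27, at 27.8 ± 12.05 counts in VMHpvlm and 35.7 ± 8.31 in VMHpvll, against 796 ± 32.2 and 829 ± 64.2 for Rps27, and neither was called. Rps4x had 681 ± 78.4 counts in VMHpvlm and 680 ± 15.1 in VMHpvll. Its relative Rps4l, annotated as a transcribed processed pseudogene, had 141 ± 23.2 and 137 ± 2.49 counts. The muscle and testis forms were at or near 0: Rpl10l had 0 reads in each of the 6 libraries, which allows up to 3 reads per library by counting error, and Rpl3l and Rpl39l never passed 5 normalised counts.

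Members varied between pairs as well as between areas. The range of the 3 pair means had a median of 0.31 log2 for the members and 0.21 for all tested genes. The median absolute area difference was 0.12 and 0.15. The range exceeded the absolute area difference for 73 of 84 members, against 8940 of 14522 tested genes. A range of 3 means tends to exceed a single difference by noise alone, so their sizes cannot be compared directly. Members were mostly lower in the KH_161103 libraries than in the F19 and F20 libraries, in 68 of 84 cases, with a median log2 difference of -0.17 between KH_161103 and the mean of the other pairs, against 0.0016 over all tested genes. Rps29, a small zinc-binding protein of the small subunit, had 242, 229 and 124 counts in VMHpvlm, against 369, 271 and 126 in VMHpvll. It was lowest in the KH_161103 libraries of both areas, and between areas its Benjamini-Hochberg adjusted p from limma was 0.0675. Rpl14 and Rpl11 were also low in KH_161103, Rpl14 with 1111, 1108 and 688 counts in VMHpvlm, against 1176, 1054 and 727 in VMHpvll.

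A few members went the other way. Rpl12, of the base of the stalk, had 368, 348 and 514 counts in VMHpvlm, against 396, 357 and 591 in VMHpvll. It was high in KH_161103, as was Rpl22 above. Rpl26 set F20 apart instead, with 1349, 818 and 1528 counts in VMHpvlm, against 1394, 874 and 1603 in VMHpvll.

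**Figure D3:**
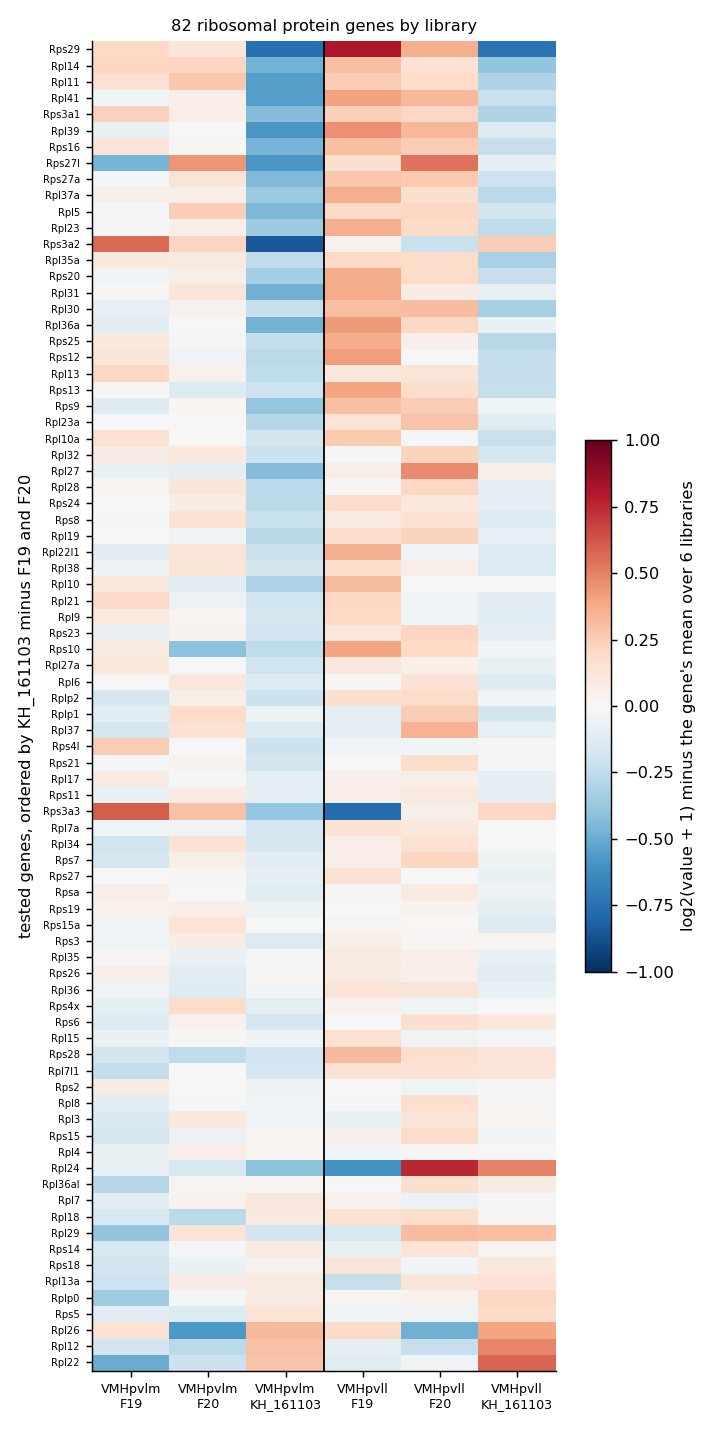
Log2(value + 1) of 82 of the 84 tested members in each library, minus the gene's mean over 6 libraries, with VMHpvlm libraries in the left columns and VMHpvll libraries in the right columns. Rows are ordered by the difference between KH_161103 and the mean of F19 and F20, so that genes low in KH_161103, led by Rps29, stand at the top and genes high in it, such as Rpl22 and Rpl12, at the bottom.

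Library scaling moved the members' median and the number called. A scaling multiplies every gene of a library alike, so the distance of the members' median from that of all tested genes, -0.12, is nearly fixed by construction and says nothing about stability. With libraries scaled to the same total the members' median log2 difference was -0.091 and 13 were called lower, against 8.40% of all tested genes, whose median was 0.026. This scaling includes Gm42418, 1 annotated gene with 13.7% ± 1.81 of the reads in VMHpvlm and 15.8% ± 1.85 in VMHpvll (SD, n = 3 each). Its share was lower in VMHpvlm in 3 of 3 pairs, with changes of -15.3%, -22.7% and -0.72%. Which RNA its reads came from was not tested. Scaled to the same total without Gm42418, the members' median was -0.13 and 24 were called lower, against 10.4% of all tested genes. The upper quartile gave -0.13 and 24, against 10.4%. TMM gave -0.12 and 22, against 10.2%, and the median of ratios over genes that are not members gave -0.12 and 22, against 9.95%. The members' median was below 0 and 0 members were called higher under each of the 6 scalings.

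**Figure D4:**
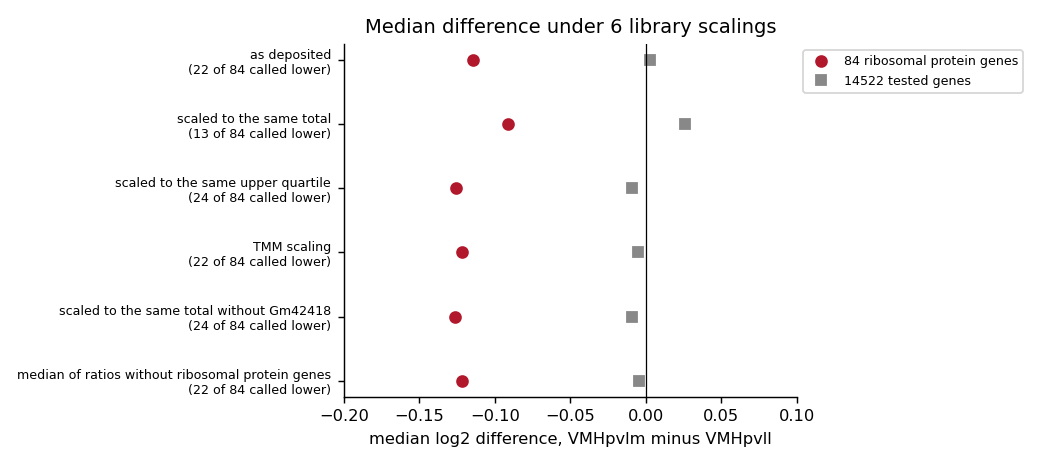
Median log2 difference (VMHpvlm minus VMHpvll) of the 84 tested ribosomal protein genes (red circles) and of all 14522 tested genes (grey squares) under 6 scalings, with the number of members called lower in brackets. The red circles lie between -0.13 and -0.091, and their distance from the grey squares is nearly fixed because a scaling moves all genes of a library alike.

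Other genes of translation were called lower in shares that ranged from near the 9.48% of all tested genes to above it, with few genes in each list. Of 23 tested 5′ TOP genes that are not members, 5 were called lower (21.7%) and 0 higher, with a median log2 difference of -0.084. They were Tpt1, which encodes the translationally controlled tumour protein (-0.32, 1772 ± 135 counts in VMHpvlm and 2216 ± 66.7 in VMHpvll), the elongation factors Eef2 (-0.21, 6033 ± 170 and 6961 ± 166) and Eef1a1 (-0.14, 8494 ± 68.1 and 9343 ± 283), Naca (-0.18), whose protein binds new chains at the ribosome, and the RNA-binding Hnrnpa1 (-0.16). Fau, whose protein is processed to a ribosomal protein and a ubiquitin-like part and whose symbol is outside the rule, was not called, at 1055 ± 139 counts in VMHpvlm and 1033 ± 159 in VMHpvll (SD, n = 3 each). Of 12 elongation and termination factors 3 were called lower (25%), Eif5a2 (-0.47) besides Eef2 and Eef1a1, and 0 higher. Of 38 initiation factors 4 were called lower (10.5%), a share near that of all tested genes, and 0 higher, with a median of -0.021: Eif3b (-0.64, 950 ± 44.9 counts in VMHpvlm and 1483 ± 54.7 in VMHpvll), Eif4g2 (-0.20), Eif4a1 (-0.19) and Eif1b (-0.21).

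Genes of ribosome assembly were called in both directions, in shares below the 9.48% lower and 10.5% higher of all tested genes. Of 94 genes of ribosome biogenesis 5 were called lower (5.32%) and 2 higher (2.13%), with a median log2 difference of -0.0046. Gnl3l (-0.19), of the nucleolus, and the small-subunit assembly factor Ltv1 (-0.37) had the smallest p-values among them. Of 75 mitochondrial ribosomal protein genes 5 were called lower (6.67%) and 1 higher (1.33%), with a median of -0.024. Of 77 nuclear genes of oxidative phosphorylation, whose mRNAs are also short and abundant, 0 were called, with a median of -0.049, and at an adjusted p of 0.0668 by limma Cox6b1 came closest. Of 31 proteasome genes 0 were called, with a median of -0.027. A list of mTOR pathway genes that also holds the transcription factors Myc, Max and Mnt had 33 tested genes, with a median of 0.065. Of these 2 were called lower (6.06%) and 6 higher (18.2%), with Max (-0.27) among the lower and Myc among the higher. Deptor, an inhibitor of mTOR, had 880 ± 121 counts in VMHpvlm and 397 ± 74.6 in VMHpvll (log2 difference 1.15), Myc, a transcription factor that raises ribosome production in many cells, had 96.9 ± 11.6 and 47.6 ± 16.6 (1.07), and Sesn3 (0.25) and Rragd (0.34) were also called higher (SD, n = 3 each). No list was tested as a whole, and their medians are descriptions.

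**Figure D5:**
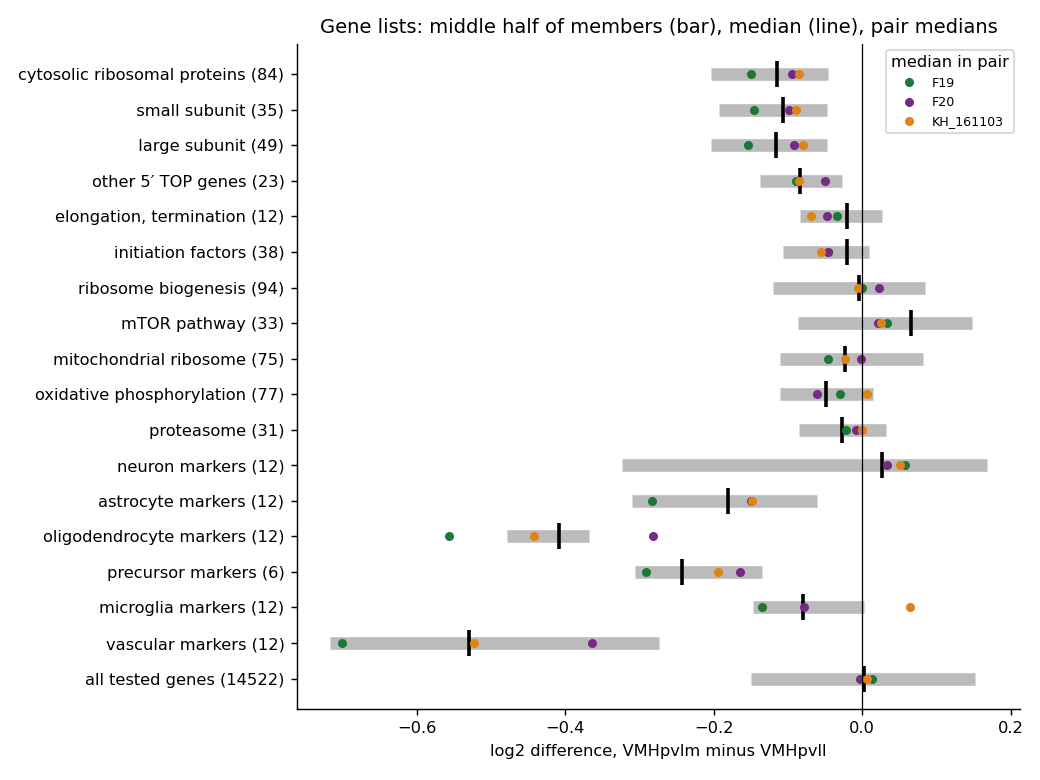
Log2 differences (VMHpvlm minus VMHpvll) of 18 groups of tested genes, with the number of genes in brackets. Grey bars span the middle 50% of genes, black lines mark medians of the fitted differences, and coloured points are medians within the F19, F20 and KH_161103 pairs. Cytosolic ribosomal protein genes lie left of 0 in every pair, and oligodendrocyte and vascular markers lie further left. The row for the mTOR pathway also holds Myc, Max and Mnt.

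Markers of glia and vessels were lower in VMHpvlm in the same libraries. Of 12 oligodendrocyte markers 10 were called lower, and their summed counts ran from 12146 to 13942 in VMHpvlm and from 16405 to 17658 in VMHpvll. Of 12 astrocyte markers 6 were called lower, with sums of 31250 to 33614 in VMHpvlm and 36686 to 41798 in VMHpvll, and of 12 vascular markers 6 were called lower, with sums of 1928 to 2312 and 2736 to 3370. Of 6 tested precursor markers 4 were called lower, with sums over all 7 listed genes of 3815 to 4221 and 4076 to 4333, and of 3 tested markers of tanycytes and ependyma 2 were, with sums over all 7 listed genes of 179 to 213 and 317 to 390. Of 12 microglia markers 0 were called, with sums of 1395 to 1501 and 1489 to 1648. Of 12 neuron markers 3, the GABAergic genes Gad1, Gad2 and Slc32a1, were called lower and 5 higher, with sums of 73081 to 79430 and 71344 to 75203. Of the erythrocyte genes 3 were tested and 0 called, and all 5 listed summed to 24.98 to 113 and 34.3 to 101. Of these markers 1, from the list of tanycytes and ependyma, was at 0 in every library. In bulk tissue, fewer cells of a type and less RNA per cell cannot be told apart, and the part of cell make-up in the ribosomal protein result was not tested.

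The members are spread over the genome. The 89 members lie on 19 chromosomes. On mm10, with GENCODE M21, Rpl41 spans 128548114 to 128549305 on chromosome 10, Rps9 spans 3703993 to 3706897 on chromosome 7, Rplp2 spans 141447370 to 141451585 on chromosome 7 and Rps28 spans 33819027 to 33824562 on chromosome 17. All 4 are annotated as protein-coding. Of the 4 tested members on chromosome X, Rpl10, Rpl36a and Rpl39 were called lower and Rps4x was not. Small nucleolar RNA genes lie inside 30 of the 84 tested members, of which 7 were called lower (23.3%), against 15 of the 54 others (27.8%). Snhg14, Rmrp and Snhg11, of a list of 15 tested small RNA hosts and related RNAs, were called higher in VMHpvlm, and 0 of that list were lower. Of 7 nuclear-enriched long RNAs, Kcnq1ot1 and Miat were called higher and 0 lower.

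The share of members called lower, set beside other genes of similar mRNA length, differed between length classes, and these differences were not tested. Members had a median mRNA length of 711 bases. Of 27 members under 600 bases 7 were called lower (25.9%), with a median log2 difference of -0.13, against 6.39% of 391 other genes under 600 bases, with a median of 0.00048. Between 600 and 1000 bases 12 of 39 members were called lower (30.8%, median -0.12), against 7.96% of 1582 other genes (median -0.022). Between 1000 and 2000 bases 1 of 13 members was called lower (7.69%, median -0.030), against 8.58% of 3147 other genes (median -0.012). The 2 longest by the median of their annotated protein-coding transcripts, Rpl22 (2048 bases) and Rps20 (3706 bases), were both called. Which transcripts were present in this tissue was not tested, so a gene's length class may differ from that of its mRNA here. Across members the difference and the length had a Spearman's rho of 0.21 (n = 81 genes of the same libraries, a description).

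Many members share sequence with other genes, so the division of their reads is uncertain. Of the 84 tested members, 83 had at least 1 window of 50 bases that also occurs in an annotated transcript of another gene, and for 30 members at least 50% of windows did. Of these 30, 8 were called lower (26.7%), against 14 of 54 with less sharing (25.9%). Sharing among called members ran from 5.16% for Rpl22 to 85.7% for Rpl23a, and was 12.4% for Rps9, 28.9% for Rpl41 and 28.7% for Rps28. Exons of 39 members overlap those of another gene, among them 10 called members, such as Rplp2 with Snora52, Rps28 with Kank3, Rpl19 with Gm11629, Rps10 with Gm15420, Rpl31 with Tbc1d8, and Rpl23a with Tlcd1 over 62.3% of its exon bases together with Snord42b. The 270 rows with ribosomal pseudogene names summed to 2034, 2700 and 2449 counts in VMHpvlm, against 2020, 2554 and 2335 in VMHpvll, higher in VMHpvlm in 3 of 3 pairs. Of the 40 tested among them, 1 was called lower and 0 higher.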

How the data were processed

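Total RNA from laser-captured tissue was prepared with PicoPure and a strand-preserving SMARTer kit, per the labels' protocols. The submitters' processing notes name HISAT2, featureCounts and mm10, without versions, annotation, strand setting or handling of reads with several matches, so overlapping antisense genes cannot be told apart here. Each deposited value is a normalised signal: the authors' gene count over 1 size factor per library. At least 99.995% of non-zero values were multiples of 1 read within 0.05 reads, and median-of-ratios factors differed from the deposited ones by up to 0.49%.

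Log2(value + 1) of genes averaging 10 or more was fitted with limma 3.58.1 (R 4.3.3, trend and robust), with region and title name as a fixed block, two-sided, with Benjamini-Hochberg adjustment over 14522 genes. The fit had 2 residual degrees of freedom and a median of 39.9 from the prior. Deviations of same-named libraries from their region means correlated at 0.26, 0.24 and 0.36, and other pairings at 0.0067 or below, so the names shared in the titles were taken as pairs. Libraries of 1 region differed beyond sampling noise (chi-square per degree of freedom 5.49 to 9.89). Scripts were tested on simulated data. There the limma step called 4% of differences of 0.3 log2, 42% of 0.5, 80% of 1 and 100% of 2. The simulation set its own noise and share of changed genes, so these rates need not hold for the real libraries. A member that was not called may still differ by a small amount.

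Alternatives used edgeR 4.0.16 and DESeq2 1.42.0 on recovered reads, other blocks, variance priors, pseudocounts, filters and scalings, and left-out libraries. The median mRNA length comes from protein-coding transcripts of GENCODE M21, which held 89 of 89 members, and promoters come from RefSeq on GRCm38.p6. Members, gene lists and tests were chosen with earlier results of these data known. Named genes were the 15 called members with the smallest adjusted p, the 8 with the highest mean, the 5 with the largest differences each way, paralogues, stalk genes and, of other lists, up to 4 by smallest p. Chosen after their values were seen were Rpl23, Rpl23a, Rpl31, Rpl7a, Rps6, Rpl5, Rpl11, Rpl12, Rpl14, Rpl26, Rps29, Hnrnpa1 and Fau. Some genes that the rule names are not reported here one by one, though they stay in counts and medians. Nr5a1 and Slc17a6 served as checks of the tissue.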

Additional observations from a re-analysis of the deposited data

How the results depend on the processing

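The number of ribosomal protein genes called lower in VMHpvlm was 22 of 84 with all pairs (26.2%), against 9.48% of all tested genes. It was 1 without the pair block (1.19%, against 5.94%) and 8 with the pair as a random block (9.52%, against 8.78%). With equal totals it was 13 (15.5%, against 8.40%), and with DESeq2 3 (3.57%, against 4.01%). A variance prior without trend and robust gave 0, against 1.60%. With no filter on low values 14 of 88 members were called (15.9%), and the share of all genes in that fit is not given here. Leaving out a pair or library gave 1 to 19, and 0 members were called higher under any alternative. Single libraries were left out without the block. All tested genes called lower numbered 863 without the block, 233 without trend and robust, 582 with DESeq2 and 643 to 1361 with a pair or library left out, and those called higher 937, 189, 648 and 686 to 1511. Every leave-out kept the median below 0, at -0.16 to -0.054 for all members, -0.16 to -0.035 for the small subunit and -0.18 to -0.075 for the large subunit. No called member reversed its direction in any alternative. The called members were picked by the main fit on the same 6 libraries, so their unchanged direction is a description and not support. Of members not called, Rps4x was at 0.020 with equal totals, and these changed direction when a pair or library was left out, with ranges of -0.15 to 0.067 (Rpl13a), -0.15 to 0.045 (Rpl21), -0.27 to 0.043 (Rpl22l1), -0.12 to 0.0088 (Rpl3), -0.016 to 0.052 (Rpl4), -0.030 to 0.11 (Rpl7), -0.069 to 0.15 (Rplp1), -0.0027 to 0.066 (Rps19), -0.10 to 0.0057 (Rps27), -0.18 to 0.80 (Rps3a3), -0.098 to 0.16 (Rps4l), -0.11 to 0.060 (Rps4x) and -0.069 to 0.015 (Rpsa). The cause of these changes was not tested.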
